A study of Mus musculus with 9 samples.

Results

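A set of 10 genes that report on fibroblast growth factor (FGF) and ERK signalling was followed over 9 arrays of mouse embryonic stem cells. They are the ligand Fgf4, the immediate early genes Egr1 and Fos, the delayed feedback inhibitors Spry2, Spry4, Spred1, Dusp4 and Dusp6, and the Ets factors Etv4 and Etv5. Members were all probe sets whose only gene symbol in the platform annotation is 1 of these 10 names, which gave 27 of the 45101 probe sets on the array. Of these 27, 25 were bright enough to be tested, as were 29811 of all probe sets, and every one of the 10 genes kept at least 1. The 2 left out both belong to Spred1.

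D3-pOct4 cells, a line of mouse embryonic stem cells, were grown in serum for 7 days in 3 conditions, with 3 arrays each. The LIF group was given leukemia inhibitory factor (LIF) at 1000 U/ml, a cytokine that keeps such cells undifferentiated. The no LIF group received neither LIF nor donor, and the donor group received no LIF and 2 µM of DETA/NO, which releases nitric oxide slowly. Replicates 1, 2 and 3 of each group are passages 31, 33 and 34 of this 1 line, and the labels do not say more on how separate the cultures were, so that a p-value here measures only the spread among arrays, which may be technical. The cells were lifted with trypsin before RNA was taken. The 9 embryonic stem cell markers summed to 16757 to 25128 with LIF, 18543 to 30455 without and 13408 to 18029 with the donor. Pou5f1, the defining factor, read 958 to 3211 over the 9 arrays, while the naive factors Klf4 and Esrrb ranged from 197 to 2542 and from 169 to 1366. All 9 markers had negative log2 differences with the donor against no LIF (median -0.36), and 0 were called. Of all 13376 genes tested, 52.4% were lower in this comparison. Sox2, Klf4 and Esrrb were highest of the 9 arrays on no LIF replicate 2, at 3866, 2542 and 1366. Their signs lean on that array, as the other no LIF arrays read 1706 and 1805, 197 and 698, and 169 and 590.4. Tdgf1 and Dppa5a, also highest on that array, were lower with the donor than without LIF without overlap (-0.86 and -0.47). The other markers overlapped. Of all tested probe sets, 2.52% were lower without overlap in this comparison. The fibroblast collagen Col1a1 lay at 2.73 to 25.5, close to the array medians of 13.9 to 23.3.

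Background on the pathway helps to read the values. Embryonic stem cells make Fgf4 themselves, and its binding to FGF receptors activates RAS, RAF, MEK and the kinase ERK, which pushes the cells out of the naive state and towards lineage commitment. ERK switches on immediate early genes such as Egr1 and Fos within minutes and for a short time, with no need for new protein. Later it raises its own inhibitors, among them the Sprouty and Spred proteins, which act on RAS and RAF, and the dual specificity phosphatases, of which Dusp6 strips phosphate from ERK in the cytoplasm and Dusp4 in the nucleus. Etv4 and Etv5 are Ets transcription factors whose RNA follows FGF signalling closely in many embryonic tissues.

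The promoters of an immediate early gene and of a delayed inhibitor are shown as an example of each class. RefSeq (GRCm38.p6) gave 7 promoters for 6 of the 10 genes. The 110 bases before the start of Fos and of Dusp6 read 5′ to 3′ on the plus strand as follows, with 3 motifs in capitals in both: TGACG (the core of the CRE, the site of CREB family factors), TATAAA (the TATA box) and GGAA on either strand (the core of Ets sites, TTCC when read on the other strand).
Fos, chr12:85473780-85473889: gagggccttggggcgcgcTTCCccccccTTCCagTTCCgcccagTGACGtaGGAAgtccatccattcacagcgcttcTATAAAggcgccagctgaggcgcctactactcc
Dusp6, chr10:99263121-99263230: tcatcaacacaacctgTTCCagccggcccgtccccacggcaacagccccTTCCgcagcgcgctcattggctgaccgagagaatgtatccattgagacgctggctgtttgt
In Fos the TGACG shown begins 66 bases and the TATAAA 33 bases before the start, and 4 GGAA cores stand in the stretch. Dusp6 holds 2 GGAA cores there, beginning 94 and 61 bases before the start, so the Ets core does not set the sequences apart. Both strands were searched in the 250 bases upstream. Fos held 2 copies of TGACG, 1 of TATAAA and 5 of GGAA, and Dusp6 held 6 of GGAA and 0 of the other motifs. TGACG stands in 17.8% of the 32851 RefSeq promoters of that length, TATAAA in 12.4% and GGAA in 93.4%. The CArG box, the site of serum response factor, stands in 1.47% of them. Within the same 250 bases it stands in 0 of the 7 promoters of these genes. Bases farther upstream were not searched, and Egr1 was not among the 6 genes with a promoter, so sites there are not covered. These matches describe letters only, and no array value bears on them.

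No member passed the test in any comparison. In limma the adjusted p of the 10 genes was 0.973 to 1 for no LIF against LIF, 0.929 to 0.992 for the donor against no LIF, and 1 for all 10 in the donor against LIF. The same fit called 0 probe sets of 29811 in each comparison, a background of 0%. At an unadjusted p under 0.05 it held 459, 1498 and 578 of all tested probe sets in that order (1.54%, 5.02% and 1.94%), and 1, 0 and 3 of the 25 member probe sets. The levels below are therefore descriptions of 9 arrays. Differences by passage set same-numbered arrays side by side, but these were not taken as pairs. Differences are on the scale of log2(signal + 3), which understates those of dim probe sets, and a gene with more than 1 tested probe set is represented by its brightest on average over the 9 arrays.

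Some arrays stood apart in ways that touch these results. Socs3, a target of LIF signalling through STAT3, read 3213, 282 and 1794 with LIF, 102, 3054 and 329.8 without it, and 95.8, 405 and 127 with the donor (replicates 1 to 3), so that the arrays labelled LIF replicate 2 and no LIF replicate 2 go against their labels. No LIF replicate 1 and donor replicate 3 were very alike (r = 0.977 over tested probe sets), and the 10 members differed between these 2 arrays by 1.01-fold to 1.32-fold, with a median of 1.12-fold. They are called the alike pair. LIF replicate 1 and donor replicates 1 and 2 had raised medians, at 20 or more. Summed signals of the 4 primed epiblast markers were 508 to 2451 with LIF, 679.6 to 6067 without and 1966 to 5311 with the donor, highest on no LIF replicate 1 and donor replicate 3. The 4 primitive streak markers summed to 829 and 824 on these arrays and to 57.2 to 344 on the other 7. The 6 markers of extraembryonic endoderm summed to 1204 on LIF replicate 3 and to 223 to 373 on the other 8 arrays. Trophoblast markers, which here are mostly the keratins Krt8 and Krt18, summed to 633 to 10873 with LIF, 661 to 10808 without and 4207 to 13439 with the donor. The fibroblast list summed to 616 on LIF replicate 3 and to 83.1 to 240.4 elsewhere, but 509 of the 616 was Pdgfra, with Col1a1 at 8.15 and Col1a2 at 5.83 there. On the same array the endoderm factors Gata6 and Gata4 read 439 and 141. Their part in the results was not tested, and in bulk RNA fewer cells of a type and less RNA per cell cannot be told apart.

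**Figure D1:**
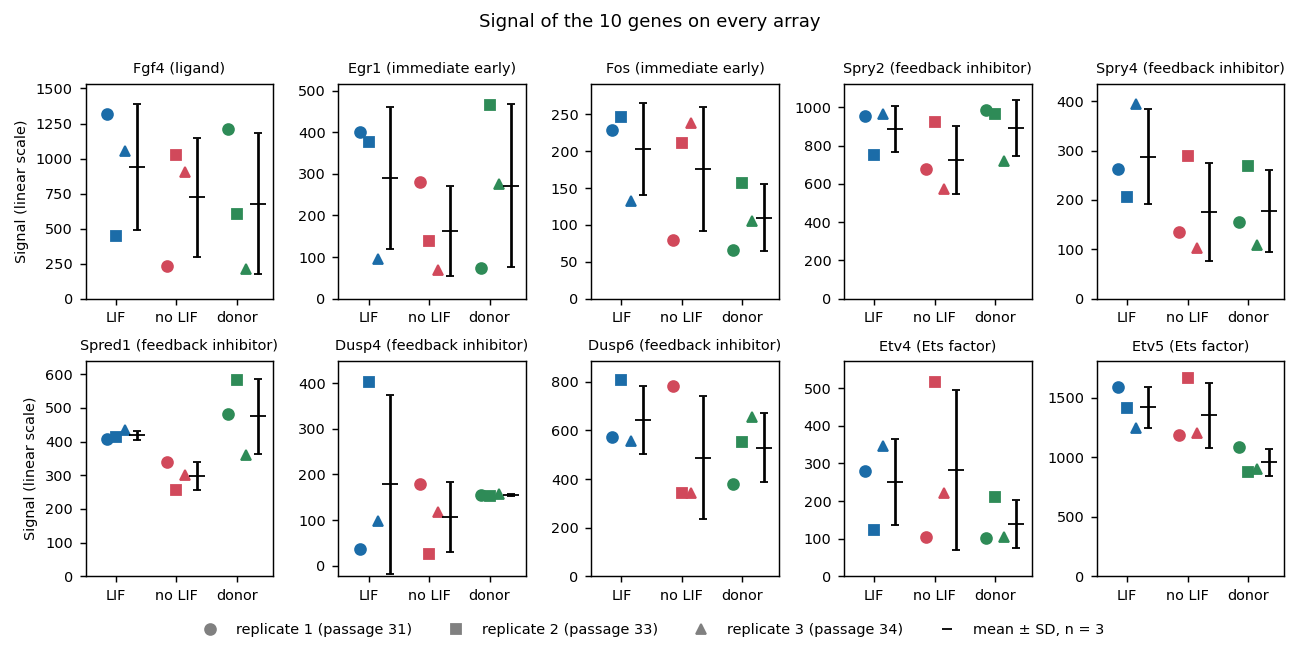
Signal (linear scale, vertical axis) of the probe set that stands for each of the 10 genes on the 9 arrays, by group (horizontal axis: LIF, no LIF, donor), with marker shapes for the replicates and the mean ± SD of 3 arrays as a bar. Spred1 lies at 255 to 338 without LIF and at 361 or more on the other 6 arrays, while Dusp4 and Egr1 spread widely within groups.

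Fgf4, the autocrine ligand that starts the pathway in these cells, read 1318, 444 and 1056 with LIF, 234, 1028 and 907 without it, and 1211, 604 and 213 with the donor in replicates 1 to 3. Each group thus held at least 1 array near or above 1000 and 1 at 604 or lower, and all groups overlapped. The means were 939 ± 448, 723 ± 427 and 676 ± 503 (SD, n = 3). The log2 difference was -0.50 for no LIF against LIF (95% interval -2.10 to 1.11) and -0.16 for the donor against no LIF (-1.76 to 1.44). The sign varied with the passage. Without LIF, Fgf4 differed by -2.48 in passage 31, by 1.20 in passage 33 and by -0.22 in passage 34. The 2 lowest signals, 234 and 213, belong to the alike pair. Without those 2 arrays the difference between no LIF and LIF was 0.18. The other 3 probe sets of Fgf4 took its sign in every comparison. Of these, 1449729_at lay above the array median on 0 of 9 arrays, and 1450282_at differed by only -0.04 (SE 0.84) for no LIF against LIF.

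Egr1, a zinc finger factor and immediate early gene, read 399.7, 376 and 94.5 with LIF, 280.4, 138 and 67.9 without it, and 73.7, 465 and 276 with the donor. Both the second highest and the third lowest of the 9 signals came from LIF cultures, so the groups overlapped. In each passage the signal without LIF was below that with LIF, by -0.51, -1.43 and -0.46 on the log2 scale, for a mean difference of -0.80 (SE 0.78, interval -2.52 to 0.92) that ran from -1.47 without LIF replicate 3 to -0.30 without no LIF replicate 3. With the donor, Egr1 differed from no LIF by -1.88 in passage 31, by 1.73 in passage 33 and by 1.98 in passage 34. The mean of these, 0.61, had an interval of -1.11 to 2.33. It was 0.05 without donor replicate 2 and 1.35 without donor replicate 1.

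Fos, which forms the AP-1 factor with Jun proteins, read 229, 247 and 132 with LIF, 80.1, 211 and 238 without it, and 66.2, 157 and 106 with the donor. The donor signals were below both other groups in 3 of 3 passages, yet the ranges overlapped, since 157 lies above the lowest LIF and no LIF arrays. The log2 difference of the donor was -0.61 against no LIF (SE 0.51, interval -1.73 to 0.51) and -0.90 against LIF (SE 0.51, interval -2.02 to 0.22). For no LIF against LIF it was -0.29 (SE 0.51), and 0.19 without the alike pair. The correlation between the immediate early genes over the 9 arrays was low. Pearson's r of Egr1 with Fos was 0.20 (exact permutation p = 0.591, adjusted 0.807) and Spearman's rho 0.20 (exact p = 0.613, adjusted 0.847). Leaving out the 2 arrays farthest from the median of Egr1 gave r = 0.16.

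Among the feedback inhibitors, Spred1, a membrane protein that blocks the activation of RAF by RAS, varied least within groups on its brightest probe set. It read 409, 414 and 435 with LIF, 338, 255 and 302 without it, and 483, 583 and 361 with the donor, or 419 ± 13.8, 298 ± 41.6 and 475 ± 111 (SD, n = 3). All 3 arrays without LIF lay below the other 6. The log2 difference was -0.50 for no LIF against LIF (SE 0.31, interval -1.19 to 0.20, limma adjusted p = 0.973) and 0.65 for the donor against no LIF (SE 0.31, interval -0.04 to 1.34, adjusted p = 0.929). Both comparisons use the same 3 arrays without LIF. In each passage the no LIF signal was the lowest of the 3, and the donor differed from LIF by 0.24, 0.49 and -0.27, a mean of 0.15 (SE 0.31). The other 5 tested probe sets had negative differences of the donor from LIF, at -0.04 to -0.44.

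Every tested probe set of Spred1 showed the same order of LIF and no LIF. For all 6 tested probe sets the 3 signals without LIF lay below the 3 with LIF, with log2 differences of -0.50 to -0.98. Of all tested probe sets, 4.72% were lower without overlap in this comparison and 2.88% were higher. The 6 probe sets read the RNA of 1 gene on the same arrays and are not independent of each other. Leaving arrays out cannot undo a separation, so fits without some arrays could not lower the count of 6 and do not test it. Without both replicate 2 arrays that go against their Socs3 labels, 27.8% of all probe sets were lower without overlap. Without the alike pair 10.5% were. The count was 5 after quantile normalization (3.0% of all) and 4 after each array was centred on its median (2.52%). For the donor against no LIF all 6 differences were positive, at 0.52 to 0.85, but the groups separated only for the probe set that stands for the gene, against 6.4% of all probe sets higher without overlap and 2.52% lower. The dimmer probe sets overlapped because donor replicate 3 read low on them, as at 53.2 against 113 on no LIF replicate 3 for 1452911_at.

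**Figure D2:**
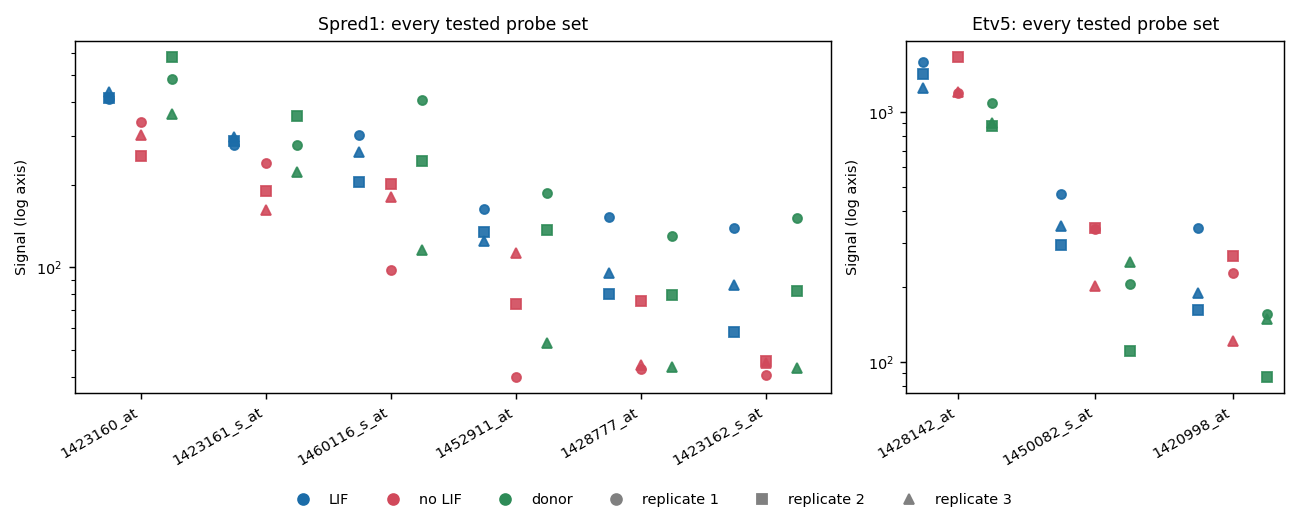
Signal (log axis) of each tested probe set of Spred1 (left, 6 probe sets) and Etv5 (right, 3 probe sets) on the 9 arrays, with colours for the groups and shapes for the replicates. For every Spred1 probe set the no LIF points lie below the LIF points, and for every Etv5 probe set the donor points lie below the LIF points.

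Spry2, a Sprouty inhibitor of receptor signalling, read 953, 750.4 and 963 with LIF, 680.1, 922 and 572 without it, and 984, 964 and 722 with the donor. All 9 signals lay within 1.72-fold of each other. The log2 difference was -0.31 for no LIF against LIF (interval -0.99 to 0.36), 0.31 for the donor against no LIF (-0.37 to 0.99) and 0.00 for the donor against LIF (-0.68 to 0.67). With the donor Spry2 was above no LIF in 3 of 3 passages, by 0.53, 0.06 and 0.33. Its dim second probe set, 1421656_at, was higher with the donor than with LIF without overlap (22.0 to 28.3 against 16.1 to 20.8), where 2.79% of all probe sets were higher in this way.

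Spry4, another Sprouty protein, read 262, 207 and 395 with LIF, 135, 289 and 102 without it, and 156, 269.7 and 109 with the donor. Replicates 1 and 3 were lower in both conditions without LIF, while the arrays of passage 33 ran the other way, with LIF the lowest of them. The log2 differences against LIF were -0.80 without LIF (SE 0.49, interval -1.88 to 0.29) and -0.73 with the donor (SE 0.49, interval -1.82 to 0.36). These comparisons share the LIF arrays. The donor differed from no LIF by 0.07 (interval -1.02 to 1.15), whereas the other 3 probe sets of Spry4 gave -0.10, -0.57 and -1.04. The probe set 1440867_at read 265, 222 and 357 with LIF, 125, 214 and 118 without it, and 141, 188 and 96.7 with the donor. It therefore separated LIF from both other groups, by -0.90 (SE 0.40) and -1.0 (SE 0.40), although 222 and 214 in passage 33 nearly met. Over all tested probe sets, 4.72% and 3.19% were lower without overlap in these comparisons. The dimmest Spry4 probe set, 1422020_at, differed by -1.80 between the donor and LIF (SE 0.62), again without overlap, and lay above the array median on only 3 of 9 arrays.

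Dusp4, the nuclear phosphatase, was the most variable member. It read 36.6, 402 and 97.2 with LIF, 178, 24.4 and 117 without it, and 155, 153 and 157 with the donor, a 16.5-fold range over the 9 arrays. The donor arrays were nearly equal, at 155 ± 1.94 (SD, n = 3), whereas the LIF arrays spread over 178 ± 196 and those without LIF over 106 ± 77.2. The difference between no LIF and LIF was 2.19 in passage 31, -3.88 in passage 33 and 0.26 in passage 34. Its mean of -0.48 (SE 0.84, interval -2.34 to 1.38) turned to 1.22 without both replicate 2 arrays and was 0.42 without LIF replicate 2 alone. The donor differed from no LIF by 0.91 (interval -0.95 to 2.77), which was 0.10 without no LIF replicate 2 and 1.46 without no LIF replicate 1. It differed from LIF by 0.43 (interval -1.43 to 2.29), and by -0.35 without LIF replicate 1.

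Dusp6, the cytoplasmic ERK phosphatase that is often read as a gauge of ERK activity, read 572, 806 and 556 with LIF, 781, 342 and 341 without it, and 379, 552 and 657 with the donor. Without LIF, 2 arrays were the lowest of all 9 and 1 was the second highest. The log2 differences were -0.49 for no LIF against LIF (SE 0.40, interval -1.39 to 0.40), 0.20 for the donor against no LIF (interval -0.70 to 1.09) and -0.30 for the donor against LIF (interval -1.19 to 0.60). The difference without LIF was -0.89 when no LIF replicate 1 was left out.

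The Ets factors parted in how much they varied. Etv4 read 279.7, 124 and 346 with LIF, 105, 517 and 222 without it, and 102, 212 and 104 with the donor, so both LIF and no LIF cultures held high and low arrays. The log2 difference was 0.01 for no LIF against LIF (interval -1.33 to 1.35), but -1.20 (SE 0.75) for its second probe set, 1443381_at. With the donor it was below no LIF in 3 of 3 passages, by -0.05, -1.28 and -1.07, for a mean of -0.80 (SE 0.61, interval -2.14 to 0.54). That mean was -0.22 when no LIF replicate 2 was left out. The second probe set differed by 0.18 in the same comparison, so the sign was not shared.

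Etv5 read 1593, 1418 and 1247 with LIF, 1189, 1665 and 1201 without it, and 1085, 879 and 906 with the donor. The 3 donor arrays were the lowest of the 9. The means were 1419 ± 173, 1352 ± 271 and 957 ± 112 (SD, n = 3). The donor differed by -0.57 from LIF (SE 0.28, interval -1.17 to 0.04, limma adjusted p = 1) and by -0.49 from no LIF (SE 0.28, interval -1.09 to 0.12, adjusted p = 0.929), sharing the donor arrays, while no LIF differed from LIF by -0.08 (interval -0.69 to 0.53). Against LIF the passages gave -0.55, -0.69 and -0.46. All 3 Etv5 probe sets were lower with the donor than with LIF without overlap, by -0.57, -1.02 and -0.77, where 3.19% of all probe sets were. This count of 3 could not fall when arrays were left out, so those settings do not test it. Without both replicate 2 arrays 9.7% of all probe sets were lower in this way, and without the alike pair 7.83% were. The count was 2 after quantile normalization (3.92% of all). Against no LIF only 1 of the 3 separated (2.52% of all), and 0 after quantile normalization (4.34%). The other 2 overlapped with no LIF replicate 3, as at 250 on donor replicate 3 against 202 there for 1450082_s_at.

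**Figure D3:**
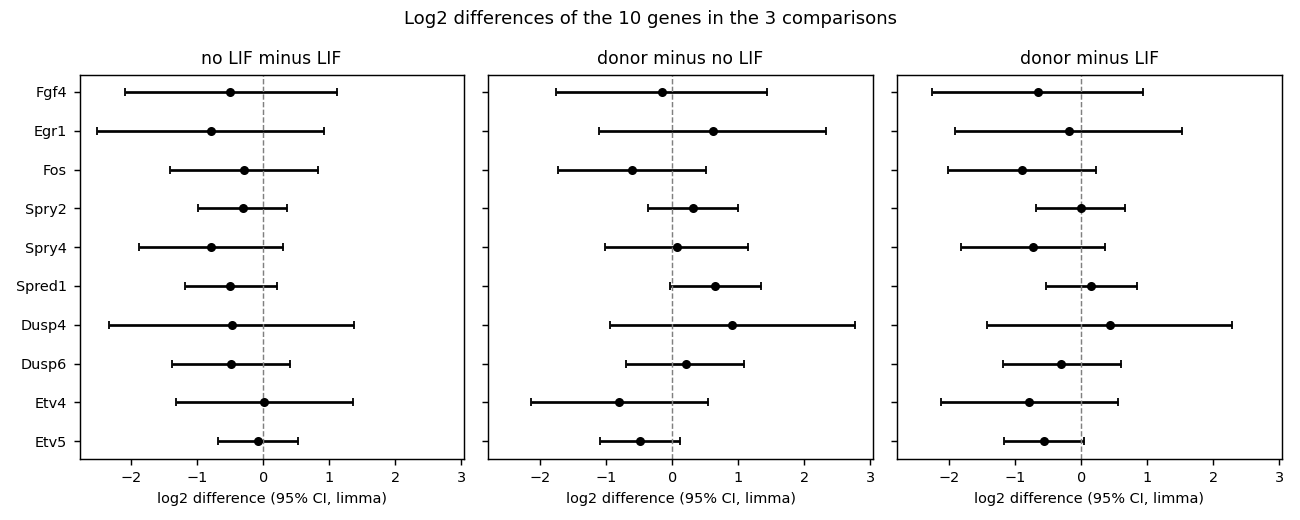
Log2 differences of the 10 genes (rows) in the 3 comparisons (panels), as points with 95% confidence intervals from limma. Every interval spans 0, and the narrowest are those of Etv5, Spred1 and Spry2.

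As a group the members leaned lower in the comparisons against LIF. Of the 10 genes, 9 had a negative log2 difference without LIF, 4 with the donor against no LIF, and 7 with the donor against LIF, where Spred1 and Dusp4 were positive and Spry2 was at 0.00. The median differences were -0.48, 0.14 and -0.43. Over all 13376 genes tested the medians were 0.01, -0.02 and -0.01, and 49.6%, 52.4% and 50.9% were lower. The 2 comparisons against LIF share its arrays. The first count was not stable, as it came to 6 of 10 without no LIF replicate 1. Leaving out the alike pair gives the same count, since its donor array does not enter that comparison. By role, both immediate early genes, all 5 inhibitors and the ligand were negative without LIF, with the Ets factors at 0.01 and -0.08. With the donor against no LIF, the probe sets that stand for the 5 inhibitors gave 0.07 to 0.91 and those for the Ets factors -0.80 and -0.49, while Egr1 and Fos took opposite signs. This split did not hold over all probe sets, since the other 3 of Spry4 were negative and the second of Etv4 positive. Median centring moved that comparison by -0.23 for all probe sets alike and gave Spry4 and Dusp6 a negative sign, with a median of -0.1 over the 10 genes. For no LIF against LIF the same centring left 8 of 10 negative, with a median of -0.27 and Etv5 at 0.14.

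The spread within groups set the roles apart only in part. The pooled within-group SD on the log2 scale was 0.62 for the median tested probe set. It was 1.28 for Dusp4, 1.18 for Egr1 and 1.10 for Fgf4, larger than in 94.4%, 91.4% and 88.6% of tested probe sets. Etv4 had 0.86, Fos 0.66, Spry4 0.64 and Dusp6 0.49. The steadiest were Spry2 at 0.27, Spred1 at 0.23 and Etv5 at 0.21, where 6.04%, 3.23% and 2.02% of tested probe sets had less. On the brightest probe sets inhibitors thus lay at both ends of the range, and Egr1 varied more than Fos. Dimmer probe sets of the steadiest genes varied more. The SE of a difference was 0.33 to 0.52 on those of Spred1, against 0.31 on its brightest. It was 0.41 and 0.45 against 0.28 for Etv5, and 0.38 against 0.31 for Spry2.

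**Figure D4:**
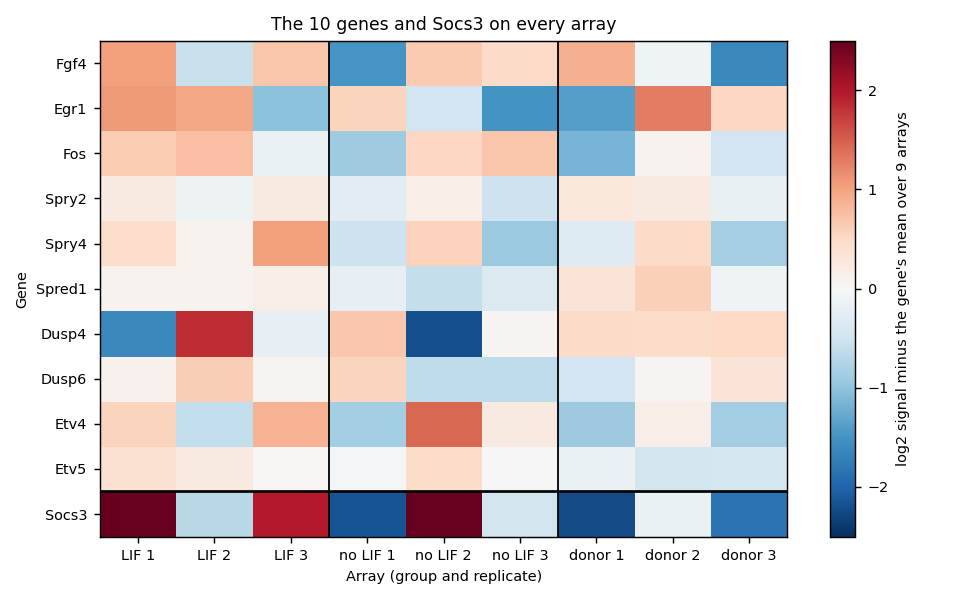
Log2 signal of each of the 10 genes, and of Socs3 for comparison, minus the mean of that gene over the 9 arrays (colour, red above and blue below, with colours ending at ±2.5), for each array (columns, by group and replicate). Dusp4 is lowest on LIF replicate 1 and no LIF replicate 2, where Socs3 is highest, and the columns of no LIF replicate 1 and donor replicate 3 look alike.

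The members were then set against each other over the 9 arrays. Among the 45 pairs of genes, 27 correlations were positive and 18 negative, and 0 passed Benjamini-Hochberg adjustment over the 45 for Pearson's r (smallest adjusted p = 0.295) or for Spearman's rho (0.388), with 5 at an unadjusted exact permutation p under 0.05 for r. The array is shared by all genes in each of these points, including its brightness. The largest was negative, between Dusp4 and Etv4, at r = -0.80 (exact permutation p = 0.00656, adjusted 0.295) and rho = -0.82 (exact p = 0.0108, adjusted 0.388). The value was r = -0.58 without LIF replicate 1 and no LIF replicate 2, the arrays farthest from the median of Dusp4, and so rests in part on them. On those arrays Dusp4 read 36.6 and 24.4 and Etv4 279.7 and 517.

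The Sprouty pair came next, with r = 0.79 between Spry2 and Spry4 (exact permutation p = 0.0145, adjusted 0.326), rho = 0.65 (exact p = 0.0666, adjusted 0.428) and r = 0.62 without the 2 farthest arrays. Egr1 with Dusp6 gave r = 0.74 (exact permutation p = 0.0331, adjusted 0.409), rho = 0.58 (exact p = 0.108, adjusted 0.54) and r = 0.49 without the 2 farthest. For Fgf4 with Dusp6 r was -0.69 (exact permutation p = 0.0402, adjusted 0.409), rho -0.48 (exact p = 0.194, adjusted 0.581) and r without the 2 farthest -0.59. Spry4 with Etv4 gave r = 0.69 (exact permutation p = 0.0454, adjusted 0.409), rho = 0.65 (exact p = 0.0666, adjusted 0.428) and r = 0.84 without the 2 farthest. In each pair these are the arrays farthest from the median of the first gene named. For Spry4 they were LIF replicate 3 and no LIF replicate 3, so the highest Etv4 array, no LIF replicate 2, stayed in. All 5 pairs kept their sign without no LIF replicate 1.

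**Figure D5:**
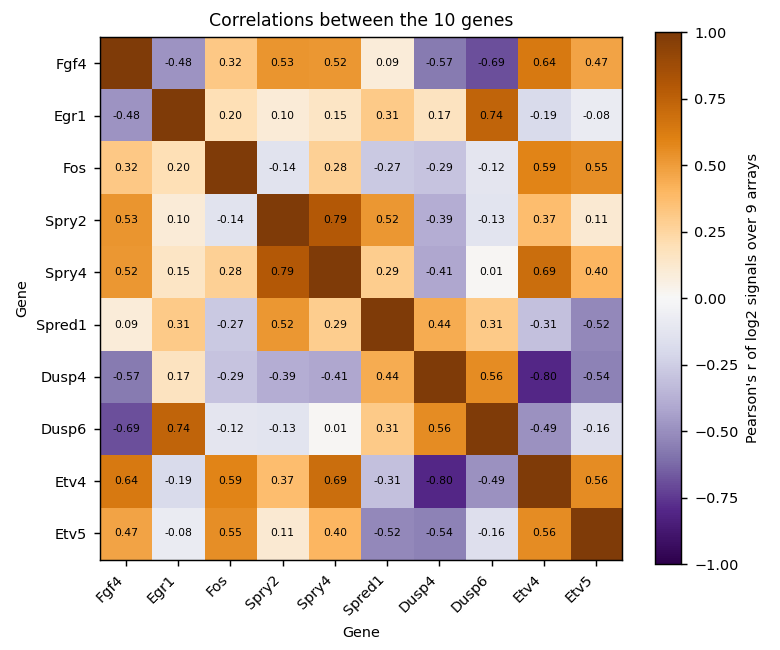
Pearson's r of log2 signals over the 9 arrays for each pair of the 10 genes (rows and columns, colour and printed value, orange positive and purple negative). Dusp4 with Etv4 (-0.80) and Spry2 with Spry4 (0.79) are the extremes, and no pair passed adjustment over the 45.

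The rest of the pathway was read from 5 lists of other genes, none of which held a gene called in any comparison. Among FGF ligands and receptors, 21 of 27 were tested, and 14 had negative differences without LIF, 9 with the donor against no LIF and 11 with the donor against LIF, with medians of -0.35, 0.16 and -0.01. The second median was -0.13 after quantile normalization and -0.07 after median centring. The 3 largest differences without LIF were those of Fgf21 (-2.0, SE 0.61), Fgf5 (1.86, SE 1.69) and Fgf13 (1.65, SE 1.21). Fgf21 was dim throughout, at 9.37 to 23.6 with LIF and 0.821 to 3.26 without, against array medians of 13.9 to 23.3. Fgf5, a ligand that primed cells make, had signals of 0.888, 56.6 and 0.71 with LIF, 521, 0.576 and 19.1 without it, and 44.1, 82.6 and 567 with the donor, so its highest arrays are the alike pair. Those of the donor against no LIF were Fgf5 (1.93, SE 1.69), Fgf7 (1.49, SE 0.57) and Fgf8 (1.33, SE 1.56). Against LIF they were Fgf5 (3.79, SE 1.69), Fgfr3 (-2.05, SE 0.81) and Fgf8 (2.01, SE 1.56). The receptor Fgfr3 read 269.9, 73.1 and 204 with LIF and 26.8, 45.1 and 39.2 with the donor, without overlap, and 22.9, 308 and 48.2 without LIF. Of all tested probe sets, 3.19% were lower without overlap with the donor than with LIF.

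Of the RAS to ERK cascade, 16 of 24 listed genes were tested, with 7, 7 and 8 negative in the same order and medians of 0.01, 0.22 and -0.09. After median centring the first was 0.23 and the second 0.0, and after quantile normalization the second was 0.12. Braf, a RAF kinase between RAS and MEK, read 191, 241 and 150.1 with LIF, 244, 51.5 and 179.6 without it, and 728, 453 and 295 with the donor. The donor arrays were the highest 3, and the log2 differences were 1.78 against no LIF (SE 0.57, limma adjusted p = 0.929) and 1.26 against LIF (SE 0.57, adjusted p = 1), with the donor arrays in both. The RAS activator Sos1 differed by -1.01 (SE 0.46) without LIF and by 1.26 (SE 0.46) with the donor against no LIF, with overlap in both. The MEK gene Map2k1 differed by -0.89 (SE 0.42) with the donor against no LIF, and the adaptor Shc1 by -0.76 (SE 0.39) against LIF, both without overlap. Of all tested probe sets, 6.4% were higher and 2.52% lower without overlap with the donor against no LIF. Against LIF these shares were 2.79% and 3.19%. Ksr1 (-1.05) and Nf1 (-0.62) completed the 3 largest without LIF, and Sos2 (0.59) those of the donor against LIF.

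Other feedback inhibitors had medians of the opposite sign to the 10 members of all roles together in both comparisons against LIF. This held after quantile normalization or median centring, with no test of the difference. The inhibitors among the members took both signs with the donor against LIF. Spry2 was at 0.00, Spry4 at -0.73, Spred1 at 0.15, Dusp4 at 0.43 and Dusp6 at -0.30. Of 16 other inhibitors listed, 15 were tested. Without LIF 6 were negative (median 0.22), with the donor against no LIF 5 (median 0.28), and with the donor against LIF 3 (median 0.52). Dusp5, a nuclear ERK phosphatase, read 14.9, 82.5 and 29 with LIF, 95, 13.3 and 107 without it, and 98.1, 133 and 135 with the donor. Its differences were 0.61, 1.15 and 1.76 (SE 0.76), and the donor separated from LIF. The FGF receptor inhibitor Il17rd (Sef) read 524, 548 and 249.5 with LIF, 713, 392 and 688 without it, and 971, 1072 and 716 with the donor. It was higher with the donor without overlap against no LIF (0.65, SE 0.40) and LIF (1.12, SE 0.40). Of all tested probe sets, 6.4% and 2.79% were higher without overlap in these comparisons. The others named by size were Dusp2 (0.95) and Dusp16 (0.67) without LIF, Dusp8 (0.73) with the donor against no LIF and Dusp14 (0.88) against LIF.

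Other immediate early genes, 20 of 24 tested, had 13, 9 and 12 negative differences and medians of -0.13, 0.03 and -0.27. Median centring turned the first 2 of these to 0.09 and -0.2, and quantile normalization the second to -0.14. The AP-1 genes Junb and Fosl2 differed by -0.85 (SE 0.52) and -0.81 (SE 0.60) without LIF, and Ier5 by 0.64. Junb read 344 on LIF replicate 1 and 57.6 to 111 on the other 8 arrays. Fosl1 differed by 1.71 with the donor against no LIF (SE 0.66) and by 1.33 against LIF, at dim signals of 11.0 to 20 with the donor. Ier3 differed by -0.95 (SE 0.58) and -1.17 (SE 0.58) with the donor in these comparisons, and Klf6 by 1.10 and 1.17 (SE 0.76). Of other Ets factors 11 of 14 were tested, with 7, 7 and 6 negative and medians of -0.03, -0.06 and 0.00, of which the first was 0.08 and the second -0.27 after quantile normalization, and 0.19 and -0.29 after median centring. Their largest differences were 0.75 for Ets1, -0.63 for Elk3 and -0.36 for Elf3 without LIF, -0.52 for Elf3, 0.45 for Etv6 and 0.30 for Elf1 with the donor against no LIF, and -0.88 for Elf3, -0.82 for Elk3 and 0.52 for Ets1 with the donor against LIF.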

How the data were processed

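Biotin-labelled RNA was hybridised to 9 Affymetrix mouse expression arrays. The authors deposited linear signal intensities, made with GeneChip Operating System 1.4.0.036 and global scaling per the labels, and MAS5 per the submitters' processing notes. Detection calls and the scanner output were not analysed here. Here log2(signal + 3) was taken, and probe sets at or above the 40th percentile of their array on at least 3 arrays were kept, without the 64 control probe sets. Limma 3.58.1 in R 4.3.3 (lmFit, eBayes with trend) gave the 3 comparisons in 1 two-sided fit over 9 arrays with group as the only term, adjusted by Benjamini-Hochberg over 29811 probe sets at 0.05. The 3 arrays a group limit the precision. Correlations used exact two-sided permutation over 362880 pairings. Names came from the platform annotation, where 34945 probe sets carry 1 symbol and 932 several; all 10 symbols matched RefSeq by Entrez identifier. Named from each list were the 3 genes with the largest absolute difference where none was called. Members and lists were chosen with earlier results of these data known. The fit was tested on simulated data. Alternatives were the pseudocount, filter, scaling, trend, arrays in the fit, replicate block, brightness block, probe set and arrays left out.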

Additional observations from a re-analysis of the deposited data

How the results depend on the processing

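No probe set was called in any comparison under the 21 alternatives. The number at an unadjusted limma p under 0.05 ran from 157 to 2444 for no LIF against LIF, 486 to 4290 for the donor against no LIF and 241 to 1653 for the donor against LIF. Deviations from the group mean correlated from -0.597 to 0.65 between same-numbered arrays, and mostly negatively, so the numbers were not taken as pairing. Differences by passage are therefore descriptions of single arrays. With the replicate block 493, 1602 and 471 probe sets had an unadjusted limma p under 0.05. After adjustment 0 passed. The replicate block, the filter, the trend and a fit of only the arrays compared leave the member differences themselves unchanged. Their signs therefore could not turn in these settings. Changing the pseudocount turned 0 of the 30 signs. Median centring, which shifts all values by 0.22, -0.23 and -0.01 in the 3 comparisons, gave 0.14 for Etv5 (no LIF against LIF), and -0.16 for Spry4 and -0.03 for Dusp6 (donor against no LIF). Quantile normalization gave Spry2 0.03 (donor against LIF). Without both replicate 2 arrays of LIF and no LIF, Dusp4 was 1.22 and Etv4 -1.01 (no LIF against LIF), Fgf4 0.22 (donor against no LIF) and Egr1 0.12 (donor against LIF). Without the alike pair, Fgf4 was 0.18, Fos 0.19 and Etv5 0.00 (no LIF against LIF), and Fgf4 0.01 and Spry2 0.14 (donor against LIF). The brightness block gave Spry4 -0.19 (donor against no LIF). The cause of these turns was not tested.

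With each array left out in turn, the no LIF against LIF differences ran from -1.26 to 0.42 for Dusp4, -0.57 to 0.56 for Etv4, -0.24 to 0.01 for Etv5, -0.96 to 0.18 for Fgf4 and -0.57 to 0.19 for Fos. Those of the donor against LIF ran from -0.35 to 1.33 for Dusp4, -0.86 to 0.56 for Egr1, -1.24 to 0.01 for Fgf4, -0.01 to 0.34 for Spred1 and -0.12 to 0.14 for Spry2. Those of the donor against no LIF ran from -0.84 to 0.50 for Fgf4, -0.28 to 0.49 for Spry4 and 0.00 to 0.59 for Dusp6. The count of members lower without LIF ran from 6 to 9, with 6 when no LIF replicate 1 was left out, alone or with its alike array. That of the donor against no LIF was 6 after median centring. The overlap counts of Spred1 and Etv5 under left-out arrays and scalings were added after seeing the data: Spred1 4 of 6 after median centring, and Etv5 2 of 3 against LIF and 0 of 3 against no LIF after quantile normalization. Signals near the array medians of 13.9 to 23.3 limit what dim probe sets can show.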

Other observations

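Dusp4 shared its lowest arrays with other genes of the pathway, a count that was chosen after its values were seen and is given as a description only. Its 2 lowest arrays, LIF replicate 1 and no LIF replicate 2, were also the 2 lowest for 13 of the 83 other pathway genes tested (15.7%), against 1043 of all 13376 genes (7.8%). The 13 genes were the phosphatases Dusp1, Dusp5, Dusp10 and Dusp14, the EGF receptor inhibitor Errfi1, the immediate early genes Jun, Ier5 and Klf6, the Ets factors Ets1, Elk4 and Elf1, the RAS activator Sos2 and the ERK-dependent kinase Rps6ka3. Of the 10 members, Dusp4 alone had these as its 2 lowest arrays. They are the arrays with the 2 highest Socs3 signals, 3213 and 3054. The part of array brightness or of other cell types in this was not tested.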
